A study of Mus musculus with 12 samples.

Results

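Heat shock proteins and DnaJ chaperones were followed here across 4 populations sorted from mouse bone marrow as endothelial cells, of which the libraries labelled sinusoidal held little endothelial RNA. The members were the genes whose symbol begins with Hspa, Hspb, Hspd, Hspe, Hsph or Hsp90, or with Dnaja, Dnajb or Dnajc and a number, together with Hsf1, Hsf2 and Bag1 to Bag6. This rule used names alone, not measured values. It found 74 of the 17362 genes in the table, and all 74 passed the filter on low values. They comprised 2 heat shock factors, 6 genes classed as small heat shock proteins by the name Hspb alone, 11 HSP70, 3 HSP110 and 3 HSP90 genes. The rest were the pair of mitochondrial chaperonin genes, 4 class A, 12 class B and 25 class C J-domain genes, and 6 BAG genes.

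Molecular chaperones bind unfolded or partly folded proteins, keep them from aggregating and help them reach their folded state. HSP70 proteins do this in cycles of ATP hydrolysis. J-domain proteins (the Dnaj genes) start each cycle and choose the client, whereas HSP110 and BAG proteins end it by exchanging the nucleotide. HSP90 acts later on signalling proteins such as kinases and receptors, small heat shock proteins hold unfolded clients without ATP, and HSP60 with HSP10 folds proteins inside mitochondria. When proteins unfold, heat shock factor 1 binds promoter repeats named heat shock elements and induces a subset of these genes, and stress in the endoplasmic reticulum (ER) induces another subset through ER stress elements. Cell dissociation and sorting can also induce heat shock genes.

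RNA was sequenced from cells of untreated B6 mice, taken from crushed tibia, femur and iliac bone. The study prepared biological triplicates from 6 mice, and the labels give no age or sex. All 4 gates kept CD31+ cells that lacked the blood cell antigen CD45 and carried Sca1. CD200-high cells were in addition CD200Hi and EMCN-, type H cells EMCN+ (endomucin positive) and arterial cells CD200-, whereas the sinusoidal gate named no further antigen. There were 3 libraries in each population, with 7332198 to 21627997 listed reads per library. The deposited values are log2 CPM (read counts relative to a scaled library size, with 0.5 read added). Values of single libraries are given below in the order of replicates 1, 2 and 3, differences are on that log2 scale with their standard error (n = 3 libraries per population), and a fold is the same difference undone from the log. A difference counts as called where its limma p, adjusted after Benjamini and Hochberg over the 17086 genes tested, was under 0.05. Where a call is said not to be kept without certain libraries, these were left out one at a time.

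The transcripts of the sorting antigens did not follow the gates in every population. Emcn stood at 7.84 to 8.68 log2 CPM in the CD200-high libraries gated as EMCN-, against 8.99 to 9.04 in type H. Cd200 stood at 7.61 to 7.81 in arterial cells gated as CD200-, against 9.80 to 9.83 in CD200-high. Ptprc, which encodes CD45, reached 7.17 to 7.63 in arterial. Ly6a, the transcript of Sca1, ranged from 8.52 to 10.54 log2 CPM in the other 9 libraries and from 3.61 to 4.87 in the 3 labelled sinusoidal. Cdh5, the cadherin of endothelial junctions, had 8 to 24 reads in those 3 libraries and 1492 to 7310 in each of the others. Pecam1, the transcript of CD31, fell less. It had 1507 to 1604 reads there, at 6.02 to 6.44 log2 CPM, against 7.09 to 9.06 in the others. The summed level of 16 pan-endothelial genes was 483 to 550 CPM there, against 1956 to 2456 in arterial, 3675 to 6467 in CD200-high and 9016 to 9887 in type H, with none of the 16 at 0 in any population. These markers go against the sinusoidal endothelial label of the 3 libraries, and the word sinusoidal is used below only as their label. Marrow blood cell genes moved the opposite way: 12 B and plasma cell genes summed to 9771 to 11143 CPM in the libraries labelled sinusoidal, 1656 to 4029 in arterial, 197 to 367 in CD200-high and 117 to 198 in type H. Over the same populations, 10 megakaryocyte and platelet genes summed to 3073 to 4316, 532 to 1740, 16 to 109 and 37 to 76 CPM. At 0 were Jchain and Rag1 in CD200-high and Gp5 in CD200-high and type H. Neutrophil and erythroid genes were highest in arterial, at 22115 to 35530 CPM (12 genes) and 10129 to 21452 CPM (11 genes), against 4790 to 11687 and 2279 to 6519 in the other populations. In CD200-high, 16 stromal and bone genes summed to 132088 to 193311 CPM, against 4861 to 27564 in the other populations. In type H, 11 mural cell genes summed to 2327 to 2920 CPM, against 56 to 550 in the other populations, where Myh11 was at 0 in sinusoidal. The single genes of this list did not all follow the sum. Of the 11, 2 were called higher and 5 lower in type H than in arterial (7.96% and 12.7% of all genes). The part of these cells in the results below was not tested unless a value is given, and in bulk RNA fewer cells of a type and less RNA per cell cannot be told apart. The labels number mice 1 to 3 in every population although 6 mice were used, so which libraries share animals is not settled by them, and p-values measure the spread between these libraries.

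**Figure D1:**
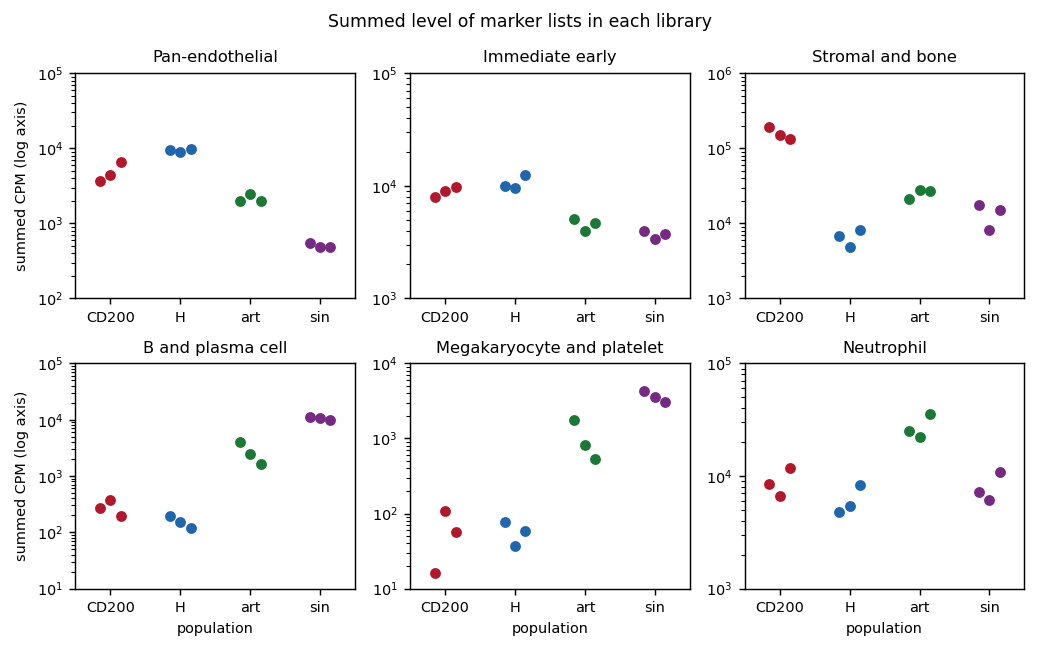
Summed level of 6 marker lists (CPM, log axis) in each library of the CD200-high, type H (H), arterial (art) and labelled sinusoidal (sin) populations, 1 point per library. Pan-endothelial genes sum to 483 to 550 CPM in the libraries labelled sinusoidal and to at least 1956 in every other library, and B cell and megakaryocyte genes run the opposite way.

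Differences rest on the deposited scaling. If the libraries are instead scaled to equal medians of the pan-endothelial genes, the median difference over all genes tested moves from -0.22 to -4.84 for CD200-high minus sinusoidal, from -0.20 to -5.57 for type H minus sinusoidal and from -0.02 to -3.37 for arterial minus sinusoidal. It moves from -0.22 to -1.48 for CD200-high minus arterial, from -0.20 to -2.21 for type H minus arterial and from -0.05 to 0.70 for CD200-high minus type H. Scaling by library totals alone moves the same medians by smaller steps, to -0.54 for CD200-high minus sinusoidal, -0.38 for type H minus sinusoidal, -0.14 for arterial minus sinusoidal, -0.41 for CD200-high minus arterial, -0.25 for type H minus arterial and -0.18 for CD200-high minus type H. Because the libraries labelled sinusoidal held little endothelial RNA, the pan-endothelial scaling raises all their genes together. With it, 190 genes were called higher and 14152 lower in CD200-high than in sinusoidal, 200 and 15114 in type H, and 253 and 11823 in arterial. A level below sinusoidal under this scaling was therefore shared with most genes and is not particular to a member. Directions that turn and calls that are lost under the pan-endothelial scaling are named with the genes described in full.

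Promoter sequences of the members that the results turn on are shown first, with the stress elements marked. They are RefSeq sequences of the mouse build GRCm38.p6, from 250 bases before to 50 after the transcription start. Promoters of a single chromosome were left out before matching, and 60 of the 74 members had an entry among the others. A member without a match can therefore lack an entry or lie on the chromosome left out. Bag4, Dnajc11, Dnajc12, Dnajc18, Dnajc2, Dnajc30, Dnajc5, Hsf1, Hsp90aa1, Hsp90ab1, Hspa13, Hspa8, Hspa9 and Hspb2 did not match. A heat shock element was searched as a pair of units, GAANNTTC or TTCNNGAA, and as 3 units, in which a further GAA or TTC follows in alternation after any 2 bases. Each 3-unit match holds overlapping pairs, and both strands are covered because the reverse complement of each pattern is in the search. The pair occurred in 15 of the 60 promoters (Bag3, Dnaja1, Dnaja4, Dnajb4, Dnajb6, Dnajc10, Dnajc27, Hspa1a, Hspa1b, Hspb1, Hspb6, Hspb8, Hspd1, Hspe1 and Hsph1) and in 17% of the 27025 genes searched. The 3-unit form occurred in 4 of 60 (Dnajb6, Hspd1, Hspe1 and Hsph1) and in 0.662% of all genes. Of the 15 members with a pair of units, 6 (40%) were called in the F test over the 4 populations that is described below, and of the 45 without one, 12 (26.7%) were called, against 37.4% of all genes.

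Hspe1 and Hspd1 encode the mitochondrial HSP10 and HSP60 and lie head to head, so that the same element stands in both promoters. It is shown at chr1:55088053-55088082, plus strand, 89 to 72 bases before the Hspe1 start. Hsph1 is shown at chr5:149636287-149636315, minus strand, with the element 37 to 49 bases after the start, and Dnajb6 at chr5:29735844-29735872, plus strand, 127 to 115 bases before the start. A further pair of units, 33 to 26 bases before the Hsph1 start, is not shown. Letters in capitals are the fixed bases of the heat shock element in this set.
Hspe1: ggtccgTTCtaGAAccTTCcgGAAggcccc
Hsph1: gtaaaatgctgcagaTTCtgGAAagTTCt
Dnajb6: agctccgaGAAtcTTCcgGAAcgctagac

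Hspb1, Bag3 and Dnaja4 are 3 of the 5 members that were lowest in the libraries labelled sinusoidal on the deposited scaling. Each of their windows holds at least 1 pair of units, which in Bag3 lies 43 to 50 bases after the start. The others, Dnajb14 and Hspa12b, were searched as well and held no pair. The 3 with a pair are shown at chr5:135887762-135887869, plus strand (Hspb1), at chr7:128523603-128523632, plus strand (Bag3) and at chr9:54699454-54699529, plus strand (Dnaja4). The bases in capitals are again the fixed bases of the element.
Hspb1: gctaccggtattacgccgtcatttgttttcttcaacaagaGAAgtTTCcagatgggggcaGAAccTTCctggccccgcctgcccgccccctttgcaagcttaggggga
Bag3: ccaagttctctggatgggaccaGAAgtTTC
Dnaja4: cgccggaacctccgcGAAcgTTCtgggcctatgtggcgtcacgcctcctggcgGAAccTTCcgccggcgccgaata

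Hspa1a and Hspa1b, the inducible HSP70 genes, are near-identical copies, and the stretch around their element is the same letter for letter. It is shown at chr17:34972213-34972300, minus strand (Hspa1a) and at chr17:34959295-34959382, minus strand (Hspa1b), with the element 104 to 97 bases before each start. Reads from one copy can be counted for the other, so their separate values are uncertain.
Hspa1a: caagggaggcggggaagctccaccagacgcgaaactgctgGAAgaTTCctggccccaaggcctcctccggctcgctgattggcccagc
Hspa1b: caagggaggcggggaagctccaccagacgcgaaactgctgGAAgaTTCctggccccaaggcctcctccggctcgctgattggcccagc

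The ER stress element, searched on both strands as CCAAT and CCACG with any 9 bases between them, occurred in 3 of the 60 promoters and in 0.137% of all genes. The 3 were Hspa5, Hsp90b1 and Dnajc3, which encode the ER chaperones BiP and GRP94 and the ER co-chaperone P58IPK, and they are shown because none of these genes was called in a comparison below. The stretches lie at chr2:34772020-34772048, plus strand (Hspa5), at chr10:86705493-86705591, minus strand (Hsp90b1) and at chr14:118937787-118937885, plus strand (Dnajc3), with the element's fixed bases in capitals.
Hspa5: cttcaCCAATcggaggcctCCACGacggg
Hsp90b1: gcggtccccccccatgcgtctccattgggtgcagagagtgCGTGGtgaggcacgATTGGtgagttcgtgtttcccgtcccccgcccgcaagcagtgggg
Dnajc3: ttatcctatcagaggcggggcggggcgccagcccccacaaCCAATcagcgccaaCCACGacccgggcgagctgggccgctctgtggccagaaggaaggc

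The share of reads held by the chaperone genes differed modestly between most libraries. They took 0.661 to 0.697% of listed reads in CD200-high, 0.794 to 0.828% in type H, 0.657 to 0.733% in arterial, and 0.786%, 0.732% and 1.14% in the 3 libraries labelled sinusoidal. With Hspa1a and Hspa1b set aside, the share was 0.493 to 0.564% in CD200-high, 0.557 to 0.619% in arterial and 0.6255 to 0.676% in type H. The 3 libraries labelled sinusoidal then held 0.678%, 0.72% and 0.746%, above every other library. These shares were not tested. Per kilobase of exon and averaged over the 4 populations, the cytosolic housekeeping chaperone Hspa8 was the most abundant member at 8.60 log2 CPM per kb. It was followed by Hspa1b at 8.03, Hspa1a at 7.87, the constitutive HSP90 gene Hsp90ab1 at 7.13 and Hspa5 at 6.97. At the other end were Hsf2 at -1.03, Dnajb7 at -1.88 and the auxilin gene Dnajc6 at -3.86 log2 CPM per kb.

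Of the 74 members, 23 (31.1%) were called in the F test of any difference among the 4 populations, where 37.4% of all genes were called. Between CD200-high and type H, 7 members were called (9.46%, against 13.0% of all genes), 2 higher and 5 lower in CD200-high, where 6.66% and 6.35% of all genes were. Between CD200-high and arterial, 7 were called (9.46%, against 12.9%), 1 higher and 6 lower in CD200-high (4.75% and 8.15% of all genes). Between CD200-high and sinusoidal, 18 were called (24.3%, against 28.7%), 8 higher and 10 lower in CD200-high (14.1% and 14.6% of all genes). Between type H and arterial, 12 were called (16.2%, against 20.7%), 6 higher and 6 lower in type H (7.96% and 12.7% of all genes). Between type H and sinusoidal, 22 were called (29.7%, against 28.6%), 11 higher and 11 lower in type H (13.9% and 14.6% of all genes). Between arterial and sinusoidal, 6 were called (8.11%, against 10.2%), 5 higher and 1 lower in arterial (8.09% and 2.14% of all genes). The members' share was below that of all genes in 5 comparisons and close to it, at 29.7% against 28.6%, between type H and sinusoidal. Called in none of the 6 comparisons were 43 members (58.1%), against 53.4% of all genes. The median difference over the members lay between -0.12 and 0.03 in the 6 comparisons, and that over all genes between -0.22 and -0.02. Without the sinusoidal libraries, in a fit of the other 3 populations alone, 12 members (16.2%) were called in the F test, against 21.1% of all genes. That alternative was chosen after seeing the data.

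**Figure D2:**
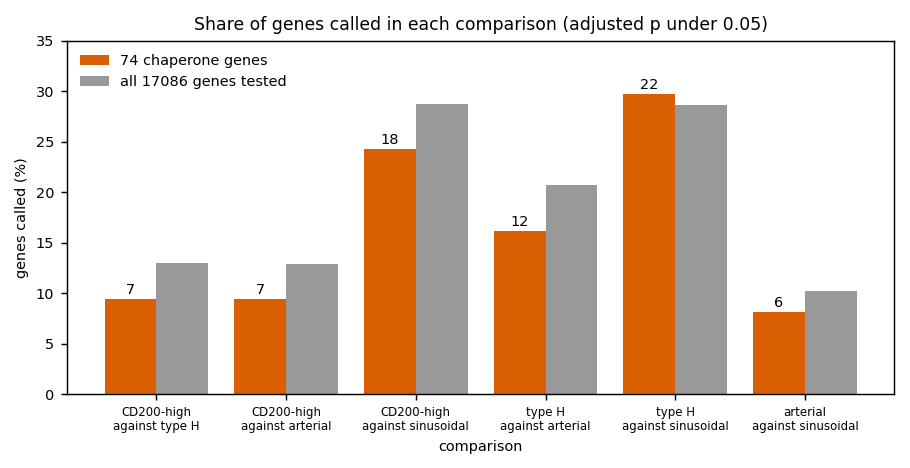
Percent of genes called (adjusted p under 0.05) in each of the 6 comparisons, for the 74 chaperone genes (orange, with the number called above the bar) and for all 17086 genes tested (grey). The orange bar is below the grey bar in 5 comparisons and about level with it, at 29.7% against 28.6%, between type H and sinusoidal.

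Leaving out 1 library moved several counts by over 1.5 times. Between CD200-high and arterial 3 members were called without arterial replicate 1, where 1353 of 17086 genes were. Between arterial and sinusoidal 3 were called without arterial replicate 3, where 1019 of all genes were. The type H and arterial count was 7 without arterial replicate 1, and that of type H and sinusoidal was 11 without type H replicate 1, 14 without type H replicate 3 and 14 without sinusoidal replicate 1 or 2. Of all genes, 2582 were called between type H and arterial without arterial replicate 1. Between type H and sinusoidal it was 4277 without type H replicate 1 and 4347 without type H replicate 3. Without sinusoidal replicate 1 or 2 it was 3836 and 3852.

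**Figure D3:**
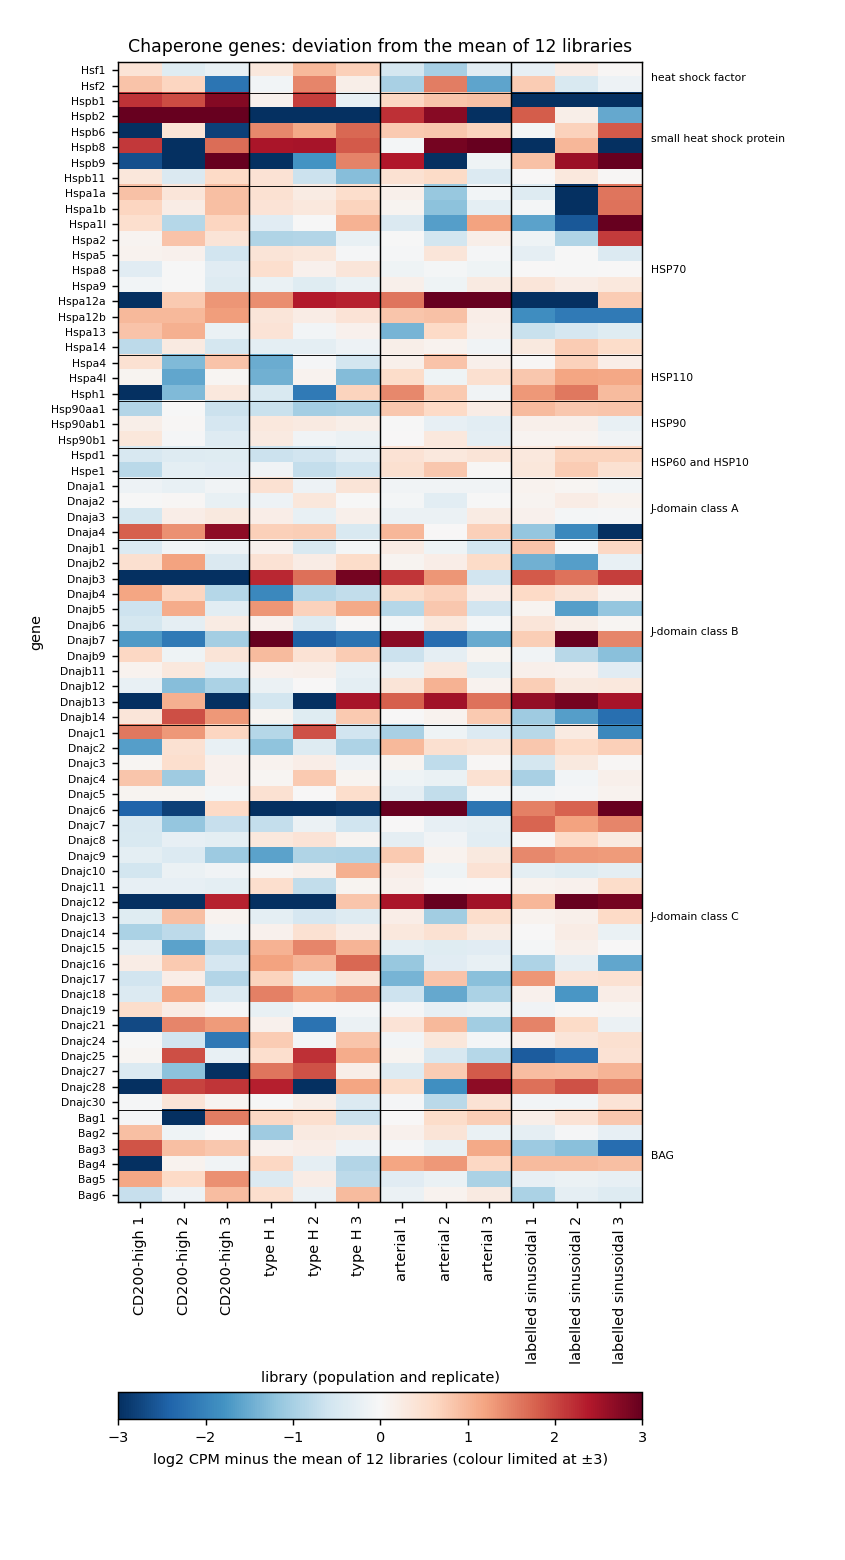
Level of each of the 74 chaperone genes (rows, ordered by class) in each of the 12 libraries (columns), as log2 CPM minus the gene's mean over the 12 libraries, with red above and blue below that mean and colours limited at 3 log2 units. Most rows of abundant genes such as Hspa8, Hsp90b1 and Dnaja2 are pale in every library, and Hspb1 and Dnaja4 are blue in the 3 libraries labelled sinusoidal.

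Among the heat shock factors, Hsf1 was higher in type H than in arterial cells. Hsf1, the main activator of heat shock genes, measured 5.79, 5.03 and 5.17 (CD200-high), 5.71, 6.36 and 6.10 (type H), 4.87, 4.40 and 5.06 (arterial) and 5.14, 5.62 and 5.43 (labelled sinusoidal). All 3 type H values exceeded all 3 arterial values (1.28 ± 0.30, 2.43-fold, adjusted p = 0.0106), and no other pair of populations was called. This difference turned to -0.73 under the pan-endothelial scaling. The F test of Hsf1 (adjusted p = 0.0301) did not pass without type H replicate 2 or 3, arterial replicate 1 or 2, or sinusoidal replicate 3 (adjusted p 0.0505 to 0.0856), nor with the replicate block (adjusted p = 0.0572). Hsf2, a related factor active in development, stood near the low end of the range at 2.74, 2.54 and -0.30 in CD200-high, 1.79, 3.34 and 2.06 in type H, 0.91, 3.41 and 0.29 in arterial and 2.65, 1.43 and 1.72 in the libraries labelled sinusoidal. Its 4 populations overlapped and none of its comparisons was called.

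Among the small heat shock proteins, Hspb1 separated the libraries labelled sinusoidal from all others. Hspb1 encodes HSP27, which binds unfolded proteins and actin filaments, and its promoter with 2 element pairs is printed above. Its log2 CPM was 7.45, 7.25 and 8.05 (CD200-high), 5.42, 7.38 and 5.07 (type H), 5.91, 6.12 and 6.16 (arterial) and 1.28, 1.63 and 1.80 (labelled sinusoidal). The 3 libraries labelled sinusoidal lay below all 9 others, whereas type H overlapped both CD200-high and arterial. Hspb1 was higher than in the sinusoidal libraries in CD200-high (6.01 ± 0.50, 64.6-fold, adjusted p = 6.75e-06), in type H (4.39 ± 0.50, 20.9-fold, adjusted p = 5.18e-05) and in arterial (4.50 ± 0.50, 22.6-fold, adjusted p = 0.000167). These 3 calls held without any 1 of the 12 libraries. Under the pan-endothelial scaling the type H difference turned to -0.98, and the arterial difference was 1.14 and no longer called (adjusted p = 0.0595).

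Hspb2, a small heat shock gene best known from muscle, had no read in the 3 type H libraries and 432, 643 and 110 reads in CD200-high. Set against a floor of 3 reads for each type H library, which covers counting error only, its CD200-high level was at least 195.9-fold higher (limma adjusted p = 0.00226). In arterial cells it had 81, 112 and 0 reads, at least 22.9-fold above that floor (adjusted p = 0.0428), and in the libraries labelled sinusoidal 67, 29 and 7 reads, at least 10.2-fold above (adjusted p = 0.0343). The arterial call was not kept on leaving out any 1 library other than arterial replicate 3 (adjusted p 0.05 to 0.153). The sinusoidal call was not kept without type H replicate 1, 2 or 3 or sinusoidal replicate 1 or 2 (adjusted p 0.066 to 0.125). With a pseudocount of 1 CPM neither was kept (limma adjusted p = 0.109 for arterial and 0.261 for sinusoidal), whereas the CD200-high call was. Cryab, itself a small heat shock gene that lies on the opposite strand, overlaps 30.2% of the Hspb2 exon bases and had 0, 110 and 0 reads in type H and 753 to 1631 in CD200-high. The strand counted is not stated, so reads of both genes cannot be told apart.

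The remaining genes of this class by name, Hspb6, Hspb8, Hspb9 and Hspb11, were called in no comparison. Hspb8, the partner of BAG3 in clearing damaged proteins, was uneven within populations, at 2.88, -4.85 and 2.43 log2 CPM in CD200-high. Values near -5 stand for 0 reads.

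Of the abundant cytosolic HSP70 genes Hspa8, Hspa1a and Hspa1b, only Hspa8 was called. Hspa8, the constitutive HSC70, measured 10.36, 10.69 and 10.37 in CD200-high, 11.19, 10.81 and 11.06 in type H, 10.58, 10.63 and 10.56 in arterial and 10.70, 10.69 and 10.70 in the libraries labelled sinusoidal. Its 3 type H values lay above those of every other library, by 1.47-fold over CD200-high (adjusted p = 0.00789) and 1.35-fold over arterial (adjusted p = 0.0191). The call against sinusoidal was not reached (adjusted p = 0.0534). The F test of Hspa8 (adjusted p = 0.012) did not pass without type H replicate 1 (adjusted p = 0.0523), nor did the arterial comparison without type H replicate 1 or 3 or arterial replicate 1 or 3 (adjusted p 0.0532 to 0.0742). Both differences turned sign under the pan-endothelial scaling, to 0.20 for CD200-high minus type H and -1.57 for type H minus arterial.

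Hspa1a and Hspa1b, which carry the heat shock element printed above, were not called in any comparison but varied within the libraries labelled sinusoidal. Hspa1a stood at 10.01, 9.49 and 10.03 (CD200-high), 9.59, 9.35 and 9.65 (type H), 9.27, 7.99 and 9.03 (arterial) and 8.74, 5.57 and 10.72 (labelled sinusoidal). Hspa1b followed it at 9.87, 9.45 and 10.14 in CD200-high, 9.65, 9.53 and 9.90 in type H, 9.32, 7.99 and 8.94 in arterial and 9.16, 5.91 and 10.85 in the libraries labelled sinusoidal. Sinusoidal replicate 2 held the lowest level of all 12 libraries for both copies and sinusoidal replicate 3 the highest. The range within that population was 35.5-fold for Hspa1a and 30.6-fold for Hspa1b, and of 9577 genes over 10 CPM there, 9 (0.094%) had a range at least as wide as Hspa1a. In CD200-high and type H the libraries of each population lay within 0.68 log2 units for both copies.

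The third gene of this cluster, Hspa1l, and the testis-enriched Hspa2 were likewise high in sinusoidal replicate 3. Hspa1l stood at 3.09, 2.15 and 8.75 log2 CPM and Hspa2 at 5.94, 5.15 and 8.17 in the libraries labelled sinusoidal. Hspa1l cannot be read alone, since the antisense transcript Gm10501 covers 71.9% of its exon bases and stood at 3.03, 2.11 and 8.75 in the same libraries. Gm20481, which overlaps 19% of the Hspa1a exon bases on the other strand, did not follow replicate 3, at 6.08, 1.92 and 3.69. Hsph1 and Bag3 were lowest of the 3 in that library, at 5.27, 5.56 and 4.93 and at 3.5, 3.31 and 2.29. Dnajb1 stood at 8.03, 7.17 and 7.81 and Hsp90aa1 at 8.12, 7.96 and 8.0, so that for both genes replicate 3 was second to replicate 1, and Hspb1 was highest in replicate 3 (1.28, 1.63 and 1.80). The 22 immediate early genes, which can rise when cells are handled, summed to 3958, 3362 and 3745 CPM.

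**Figure D4:**
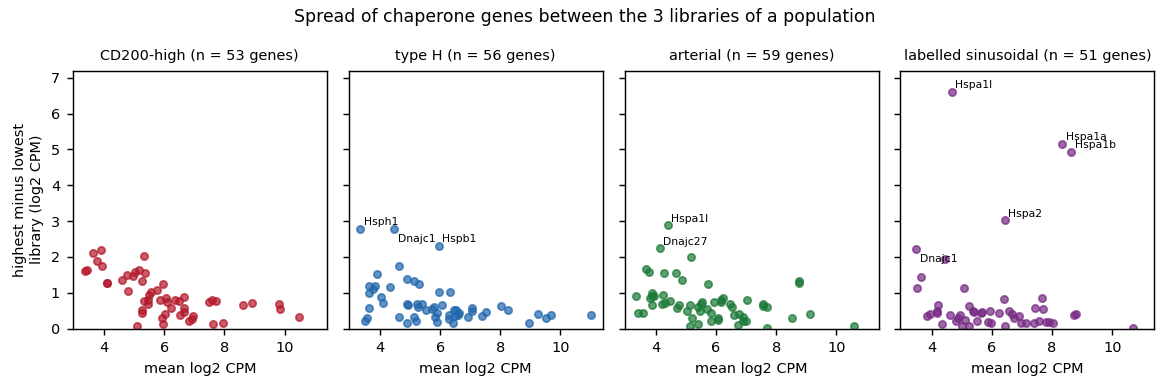
Range of each chaperone gene between the highest and lowest of the 3 libraries of a population (log2 CPM) against its mean there, for genes with a mean of at least 10 CPM, with the populations in separate panels. Hspa1l, Hspa1a and Hspa1b stand at ranges of 6.61, 5.15 and 4.94 in the libraries labelled sinusoidal, above every other gene plotted.

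Across populations the immediate early sum was 7935 to 9823 CPM in CD200-high, 9511 to 12555 in type H, 3968 to 5121 in arterial and 3362 to 3958 in the libraries labelled sinusoidal. Of the 22 genes, 14 were called higher in CD200-high and 12 in type H than in sinusoidal, and 7 and 10 were called higher than in arterial. Of all genes, 14.1%, 13.9%, 4.75% and 7.96% were called higher, in the same order. Hspa1a and Hspa1b were above all arterial libraries in every CD200-high and type H library, with a mean 2.11-fold and 2.1-fold higher in CD200-high and 1.7-fold and 1.92-fold higher in type H. None of these 4 differences was called.

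Hspa12b, an atypical HSP70 gene known to be enriched in endothelium, was lowest in the libraries labelled sinusoidal. It measured 5.83, 5.82 and 6.11 (CD200-high), 5.23, 5.07 and 5.27 (type H), 5.68, 5.74 and 5.06 (arterial) and 2.99, 2.74 and 2.73 (labelled sinusoidal). The sinusoidal values lay more than 2 log2 units below every other library. Its level was higher in CD200-high (3.10 ± 0.28, 8.58-fold, adjusted p = 1.26e-05), in type H (2.37 ± 0.28, 5.16-fold, adjusted p = 6.82e-05) and in arterial (2.67 ± 0.28, 6.37-fold, adjusted p = 0.000106). All 3 calls held without any 1 library, and all 3 differences turned sign under the pan-endothelial scaling, to -1.51, -3.0 and -0.68. The median differences over all genes under that scaling were -4.84, -5.57 and -3.37. The summed pan-endothelial markers were likewise lowest in these libraries, at 483 to 550 CPM.

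Hspa5, the ER chaperone BiP, stood at 9.15, 9.17 and 8.46 in CD200-high, 9.42, 9.37 and 9.0 in type H, 9.01, 9.39 and 9.0 in arterial and 8.77, 9.02 and 8.62 in the libraries labelled sinusoidal. All 4 populations overlapped each other and its F test did not pass (adjusted p = 0.261). With the replicate block, type H was called above sinusoidal (adjusted p = 0.0302, against 0.121 without it). Hspa9, the mitochondrial HSP70, was lower in type H than in the sinusoidal libraries (1.47-fold, adjusted p = 0.0308), and Hspa14, a ribosome-associated HSP70, was lower in CD200-high than there (1.85-fold, adjusted p = 0.0438). Hspa13, Hspa12a, Hspa2 and Hspa1l were called in no comparison, except that with the replicate block Hspa12a was called above sinusoidal in type H (adjusted p = 0.0343) and arterial (adjusted p = 0.048).

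The HSP110 genes, which recharge HSP70 with ATP, gave 1 call each for Hsph1 and Hspa4l. Hsph1, with a 3-unit heat shock element after its start, measured 0.92, 2.65 and 4.28 (CD200-high), 3.51, 1.86 and 4.65 (type H), 5.42, 4.75 and 3.86 (arterial) and 5.27, 5.56 and 4.93 (labelled sinusoidal). It was lower in CD200-high than in the libraries labelled sinusoidal (-2.64 ± 0.86, 6.22-fold, adjusted p = 0.0383), and no CD200-high value reached the sinusoidal range. The call was not kept without CD200-high replicate 1 or 2, arterial replicate 2, or sinusoidal replicate 1, 2 or 3 (adjusted p 0.0526 to 0.125), nor with the replicate block (adjusted p = 0.0536). Hspa4l stood at 3.96, 2.33 and 3.95 in CD200-high, 2.45, 4.0 and 2.58 in type H, 4.45, 3.76 and 4.36 in arterial and 4.68, 5.06 and 5.05 in the libraries labelled sinusoidal. It was lower in type H than in sinusoidal (-1.92 ± 0.56, 3.78-fold, adjusted p = 0.0241), a call not kept without type H replicate 1 or 3 or sinusoidal replicate 1, 2 or 3 (adjusted p 0.0508 to 0.079). Hspa4 was called in no comparison.

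Of the HSP90 genes, the inducible Hsp90aa1 was called in 4 comparisons, and neither the constitutive nor the ER gene was called. Hsp90aa1 measured 6.28, 7.15 and 6.51 (CD200-high), 6.51, 6.14 and 6.20 (type H), 7.98, 7.75 and 7.39 (arterial) and 8.12, 7.96 and 8.0 (labelled sinusoidal). All arterial and sinusoidal libraries lay above all CD200-high and type H libraries. Compared with arterial, Hsp90aa1 was lower in CD200-high (-1.06 ± 0.23, 2.08-fold, adjusted p = 0.0123) and in type H (-1.43 ± 0.23, 2.69-fold, adjusted p = 0.00125). Compared with sinusoidal it was lower in CD200-high (-1.38 ± 0.23, 2.6-fold, adjusted p = 0.00103) and in type H (-1.75 ± 0.23, 3.35-fold, adjusted p = 0.000162). Arterial and sinusoidal overlapped. One of these calls, CD200-high against arterial, was not kept without arterial replicate 1 (adjusted p = 0.0539).

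Hsp90ab1, the constitutive cytosolic gene, stood at 8.87, 8.75 and 8.21 in CD200-high, 9.03, 8.97 and 8.89 in type H, 8.69, 8.45 and 8.40 in arterial and 8.86, 8.86 and 8.5 in the libraries labelled sinusoidal, with an F test adjusted p of 0.199. With the replicate block, type H was called above arterial (adjusted p = 0.0349, against 0.0964 without it). Hsp90b1, which encodes the ER form GRP94, stood at 7.86, 7.49 and 7.13 (CD200-high), 7.80, 7.43 and 7.35 (type H), 7.54, 7.86 and 7.24 (arterial) and 7.62, 7.62 and 7.42 (labelled sinusoidal). Its population means lay within 0.06 log2 units of each other, at 7.495, 7.525, 7.547 and 7.554, and its F test adjusted p was 0.994. The ER stress element printed above for Hspa5, Hsp90b1 and Dnajc3 stands in 3 promoters whose genes were called in no comparison without the block.

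The mitochondrial chaperonin pair was, like Hsp90aa1, higher in arterial and sinusoidal than in CD200-high and type H. Hspd1 (HSP60) measured 5.86, 5.97 and 6.0 in CD200-high, 5.69, 5.77 and 6.03 in type H, 6.77, 6.67 and 6.73 in arterial and 6.67, 7.02 and 7.01 in the libraries labelled sinusoidal. Hspe1 (HSP10), which shares its promoter region, measured 4.92, 5.44 and 5.39 (CD200-high), 5.63, 5.03 and 5.15 (type H), 6.21, 6.55 and 5.77 (arterial) and 6.07, 6.49 and 6.18 (labelled sinusoidal). In both genes every arterial and sinusoidal library exceeded every CD200-high and type H library. Hspd1 was lower in CD200-high than in arterial (-0.79 ± 0.18, 1.72-fold, adjusted p = 0.0137) and sinusoidal (-0.96 ± 0.18, 1.94-fold, adjusted p = 0.0019), and lower in type H than in arterial (-0.90 ± 0.18, 1.86-fold, adjusted p = 0.00413) and sinusoidal (-1.07 ± 0.18, 2.1-fold, adjusted p = 0.000783). These 4 calls held without any 1 library.

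Hspe1 was lower in the same 4 comparisons, by 1.9-fold against arterial (adjusted p = 0.0466) and 1.99-fold against sinusoidal (adjusted p = 0.0186) in CD200-high, and by 1.88-fold (adjusted p = 0.0358) and 1.97-fold (adjusted p = 0.0189) in type H. Its call between CD200-high and arterial was not kept on leaving out any 1 library other than type H replicate 1 or 2 or arterial replicate 3 (adjusted p 0.0569 to 0.16), nor with the replicate block (adjusted p = 0.0639). Between CD200-high and sinusoidal it was not kept without CD200-high replicate 1 (adjusted p = 0.0597) or sinusoidal replicate 2 (adjusted p = 0.0769). Between type H and arterial it was not kept without type H replicate 2 or 3, arterial replicate 1 or 2, or sinusoidal replicate 3 (adjusted p 0.0517 to 0.131), and between type H and sinusoidal without type H replicate 2 or 3 or sinusoidal replicate 2 (adjusted p 0.0562 to 0.0795). Exons of Hspd1 and Hspe1 overlap by 112 bases on opposite strands (4.24% and 7.6% of their exon bases).

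Dnajc9, a J-domain protein that handles histones, was lower in CD200-high and type H as well. It measured 5.76, 5.64 and 4.96 in CD200-high, 4.45, 5.14 and 5.11 in type H, 6.84, 6.15 and 6.36 in arterial and 7.49, 7.36 and 7.34 in the libraries labelled sinusoidal. Dnajc9 was lower in type H than in arterial (-1.55 ± 0.28, 2.92-fold, adjusted p = 0.0026) and sinusoidal (-2.49 ± 0.28, 5.63-fold, adjusted p = 5.14e-05). CD200-high lay below arterial (-1.0 ± 0.28, 1.99-fold, adjusted p = 0.0394) and sinusoidal (-1.94 ± 0.28, 3.84-fold, adjusted p = 0.000377). The call between CD200-high and arterial was not kept without CD200-high replicate 2 or 3, arterial replicate 1 or 3, or sinusoidal replicate 1, 2 or 3 (adjusted p 0.0536 to 0.146), nor with the replicate block (adjusted p = 0.0605). Arterial and sinusoidal libraries did not overlap, but that comparison was not called (adjusted p = 0.0568).

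Dnajc9, Hsp90aa1, Hspd1 and Hspe1 were the 4 members (5.41%) called higher in both arterial and sinusoidal than in both other populations, a pattern picked out after its values were seen and shown by 3.08% of all genes. The B cell, megakaryocyte and platelet sums given above were likewise higher in arterial and sinusoidal, at 117 to 367 CPM of B and plasma cell genes in CD200-high and type H and at least 1656 in arterial and sinusoidal, and their part in these differences was not tested.

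**Figure D5:**
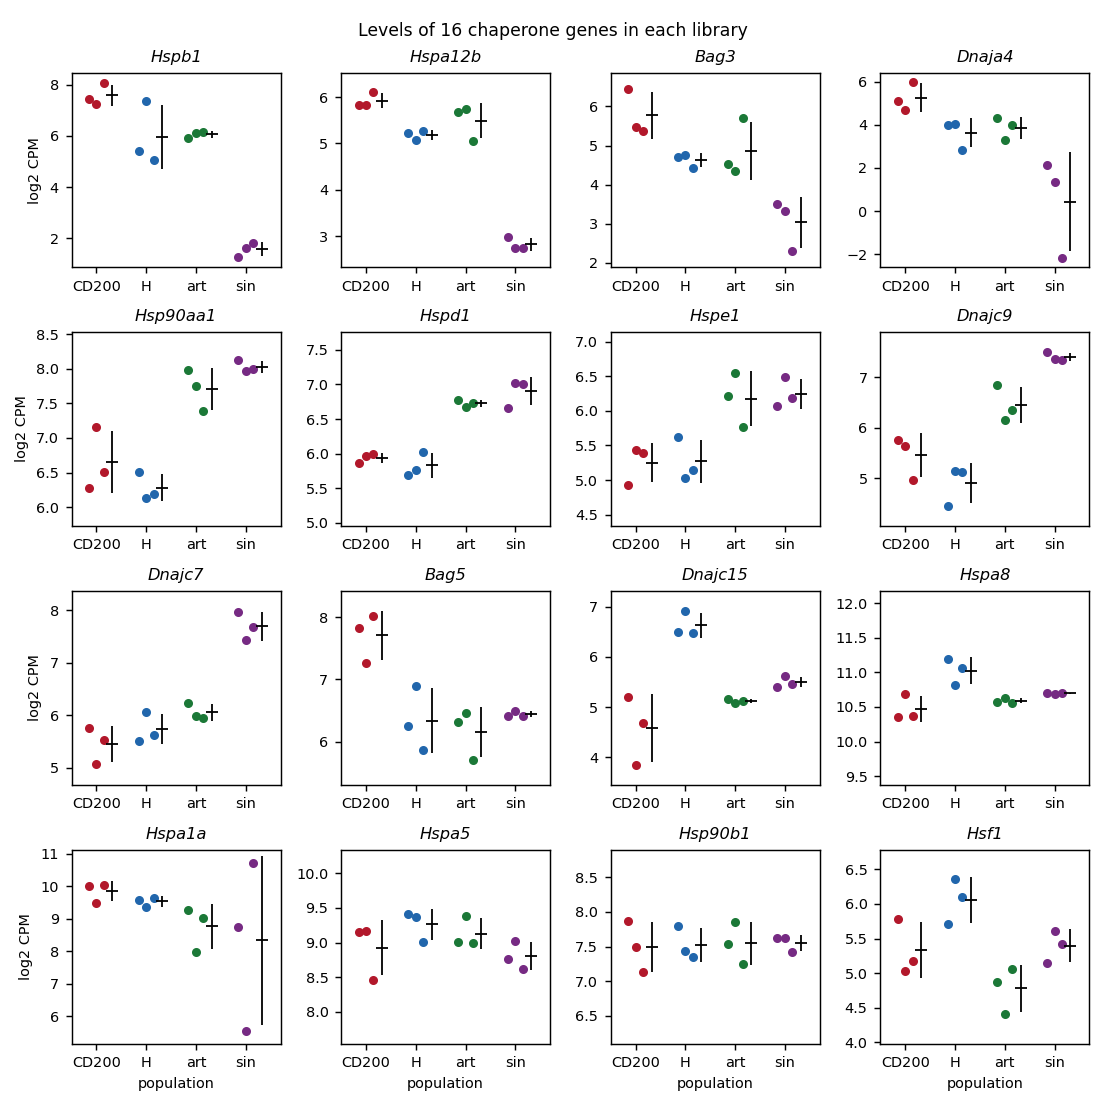
Level of 16 chaperone genes (log2 CPM) in each library of the CD200-high, type H (H), arterial (art) and labelled sinusoidal (sin) populations, with points for libraries and the mean ± SD (n = 3) beside them. Axes differ between panels. Hsp90aa1, Hspd1, Hspe1 and Dnajc9 are higher in all arterial and sinusoidal libraries than in all CD200-high and type H libraries, Hspb1, Hspa12b, Bag3 and Dnaja4 are lowest in sinusoidal on the deposited scaling, and Hspa1a spans 5.57 to 10.72 within sinusoidal.

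Class A J-domain genes, the closest relatives of bacterial DnaJ, gave calls for Dnaja4 alone. Dnaja1, the main cytosolic member, measured 7.63, 7.58 and 7.69 (CD200-high), 8.26, 7.64 and 8.18 (type H), 7.70, 7.68 and 7.70 (arterial) and 7.89, 7.85 and 7.70 (labelled sinusoidal), and none of its comparisons was called. Dnaja2 and the mitochondrial Dnaja3 were not called either. Dnaja4, an inducible member with 2 element pairs in the promoter printed above, measured 5.09, 4.67 and 5.99 in CD200-high, 4.01, 4.03 and 2.85 in type H, 4.3, 3.31 and 4.0 in arterial and 2.13, 1.36 and -2.19 in the libraries labelled sinusoidal. Sinusoidal replicate 3 was the lowest of all libraries and the 3 sinusoidal values lay below the other 9.

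Dnaja4 was higher than in the sinusoidal libraries in CD200-high (4.81 ± 0.96, 28.1-fold, adjusted p = 0.00299), in type H (3.20 ± 0.96, 9.16-fold, adjusted p = 0.0262) and in arterial (3.44 ± 0.96, 10.8-fold, adjusted p = 0.042). The type H call was not kept without type H replicate 1 (adjusted p = 0.0746) or type H replicate 2 (adjusted p = 0.0703), and the arterial call was not kept on leaving out any 1 library other than CD200-high replicate 2, type H replicate 2 or 3, or sinusoidal replicate 1 (adjusted p 0.0503 to 0.126), nor with the replicate block (adjusted p = 0.051). Under the pan-endothelial scaling the type H difference turned to -2.17, and neither the CD200-high difference, at 0.20 (adjusted p = 0.865), nor the arterial difference, at 0.08 (adjusted p = 0.95), was called. Wdr61, on the opposite strand, overlaps 44.1% of the Dnaja4 exon bases. It stood at 5.16 to 5.84 log2 CPM in CD200-high and 5.38 to 5.98 in the libraries labelled sinusoidal, so that its level did not fall with Dnaja4.

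Among the 12 class B genes, 5 (41.7%) were called in the F test, against 37.4% of all genes. Dnajb1, the heat-inducible HSP40, stood at 6.76, 7.11 and 7.04 (CD200-high), 7.31, 6.73 and 7.11 (type H), 7.43, 7.04 and 6.63 (arterial) and 8.03, 7.17 and 7.81 (labelled sinusoidal). Its sinusoidal values were the highest on average, but no comparison was called. Dnajb14, anchored in the ER membrane, measured 4.54, 6.09 and 5.47 in CD200-high, 4.25, 3.79 and 4.94 in type H, 4.18, 4.26 and 4.94 in arterial and 3.10, 2.51 and 1.90 in the libraries labelled sinusoidal. All 3 sinusoidal values lay below the other 9.

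Dnajb14 was higher than in sinusoidal in CD200-high (2.87 ± 0.51, 7.29-fold, adjusted p = 0.00147), in type H (1.83 ± 0.51, 3.55-fold, adjusted p = 0.0185) and in arterial (1.96 ± 0.51, 3.9-fold, adjusted p = 0.0302). The type H call was not kept without type H replicate 3 (adjusted p = 0.0717) or sinusoidal replicate 3 (adjusted p = 0.0711), and the arterial call was not kept without arterial replicate 1, 2 or 3 or sinusoidal replicate 2 or 3 (adjusted p 0.0521 to 0.129), nor with the replicate block (adjusted p = 0.054). All 3 differences turned sign under the pan-endothelial scaling, to -1.75, -3.54 and -1.39. Dnajb2, a J-domain protein with ubiquitin-binding motifs, was called higher in CD200-high (2.87-fold, adjusted p = 0.0302) and type H (2.83-fold, adjusted p = 0.031) than in sinusoidal, and its type H call was not kept with the replicate block (adjusted p = 0.0515). Dnajb9 (ERdj4), an ER stress target, was higher in the same 2 comparisons, by 2.03-fold (adjusted p = 0.037) and 2.72-fold (adjusted p = 0.00616). The directions of Dnajb2 and Dnajb9 also turned under the pan-endothelial scaling.

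Dnajb3 had no read in any CD200-high library. Its reads were 154, 93 and 189 in type H, 124, 67 and 10 in arterial, and 107, 127 and 144 in the libraries labelled sinusoidal. Against the floor of 3 reads per CD200-high library it was at least 27.2-fold higher in type H (adjusted p = 0.000454), at least 13.6-fold in arterial (adjusted p = 0.00235) and at least 19.5-fold in sinusoidal (adjusted p = 0.000298). These calls held without any 1 library, although the levels are low, at 10 to 189 reads. Dnajb3 was the only member lowest in CD200-high (1.35% of the members, against 1.11% of all genes).

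Dnajb4 and Dnajb5, cytosolic relatives of Dnajb1, differed in type H in opposite directions. Dnajb4 measured 6.17, 5.63 and 4.14 (CD200-high), 3.07, 4.14 and 4.26 (type H), 5.56, 5.68 and 5.20 (arterial) and 5.59, 5.37 and 5.10 (labelled sinusoidal). It was lower in type H than in arterial (-1.66 ± 0.49, 3.15-fold, adjusted p = 0.0328) and sinusoidal (-1.53 ± 0.49, 2.89-fold, adjusted p = 0.0354). The first call was not kept without type H replicate 1 or arterial replicate 1, 2 or 3 (adjusted p 0.0575 to 0.113), the second was not kept without type H replicate 1 or sinusoidal replicate 1, 2 or 3 (adjusted p 0.0602 to 0.125), and the F test (adjusted p = 0.0474) did not pass on leaving out any 1 library other than CD200-high replicate 1 or 3 (adjusted p 0.0633 to 0.197), nor with the replicate block (adjusted p = 0.0618).

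Dnajb5 measured 3.24, 4.98 and 3.55 in CD200-high, 5.20, 4.55 and 4.99 in type H, 3.02, 4.68 and 3.30 in arterial and 3.96, 2.21 and 2.71 in the libraries labelled sinusoidal. It was higher in type H than in sinusoidal (1.95 ± 0.64, 3.87-fold, adjusted p = 0.039). That call was not kept without type H replicate 1, 2 or 3 or sinusoidal replicate 2 or 3 (adjusted p 0.053 to 0.137), nor with the replicate block (adjusted p = 0.0584), and it turned to -3.41 under the pan-endothelial scaling. Of the other class B genes, Dnajb6, Dnajb7, Dnajb11, Dnajb12 and Dnajb13 were called in no comparison. The level of the ER co-chaperone Dnajb11 was nearly even, between 6.25 and 6.90 log2 CPM in all 12 libraries.

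Class C holds 25 genes, which share only the J domain, and 7 of them (28%) were called in the F test, against 37.4% of all genes. Dnajc7, a TPR protein that links HSP70 and HSP90, measured 5.75, 5.07 and 5.53 (CD200-high), 5.51, 6.06 and 5.63 (type H), 6.24, 5.99 and 5.94 (arterial) and 7.97, 7.43 and 7.69 (labelled sinusoidal). The 3 sinusoidal values were above the other 9. Dnajc7 was lower than in sinusoidal in CD200-high (-2.25 ± 0.24, 4.74-fold, adjusted p = 4.28e-05), in type H (-1.97 ± 0.24, 3.91-fold, adjusted p = 9.31e-05) and in arterial (-1.64 ± 0.24, 3.12-fold, adjusted p = 0.00108). It was the only member highest in sinusoidal (1.35% of the members, against 1.29% of all genes), and its 3 calls held without any 1 library. Cnp, which overlaps 3.17% of the Dnajc7 exon bases on the opposite strand, stood at 9.41 to 9.73 log2 CPM in the same libraries and at 5.87 to 8.26 in the others. Nkiras2, which overlaps 5.9% on the opposite strand, did not rise with Dnajc7. It stood at 6.21 to 6.66 in the libraries labelled sinusoidal and at 6.46 to 7.36 in the others.

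Dnajc15, a mitochondrial inner membrane protein that restrains the respiratory chain, was the only member highest in type H (1.35% of the members, against 2.89% of all genes). Its level was 5.20, 3.86 and 4.68 in CD200-high, 6.51, 6.91 and 6.47 in type H, 5.16, 5.09 and 5.12 in arterial and 5.41, 5.62 and 5.47 in the libraries labelled sinusoidal. Every type H library exceeded every other library. The summed level of the mural cell genes given above was likewise highest in type H, although 2 of the 11 were called higher and 5 lower there than in arterial. The part of mural cells in this result was not tested. Dnajc15 was higher in type H than in CD200-high by 4.15-fold (adjusted p = 0.00114), than in arterial by 2.84-fold (adjusted p = 0.00557) and than in sinusoidal by 2.19-fold (adjusted p = 0.0179). The first 2 calls held without any 1 library, whereas that against sinusoidal was not kept without type H replicate 2 or sinusoidal replicate 1 or 3 (adjusted p 0.052 to 0.0615). It was also lower in CD200-high than in sinusoidal (1.9-fold, adjusted p = 0.0458), a call not kept on leaving out any 1 library other than CD200-high replicate 1 or type H replicate 2 (adjusted p 0.058 to 0.13), nor with the replicate block (adjusted p = 0.0668). Under the pan-endothelial scaling its type H differences from arterial and sinusoidal turned to -0.50 and -4.23.

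Dnajc16, Dnajc18 and Dnajc5 were also higher in type H than in arterial. Dnajc16, an ER membrane protein, measured 4.14, 4.69 and 3.42 (CD200-high), 5.13, 4.95 and 5.63 (type H), 2.79, 3.57 and 3.69 (arterial) and 3.0, 3.66 and 2.36 (labelled sinusoidal). It exceeded arterial (1.88 ± 0.49, 3.69-fold, adjusted p = 0.0189) and sinusoidal (2.23 ± 0.49, 4.69-fold, adjusted p = 0.00525), with no overlap. The arterial call was not kept without type H replicate 3 (adjusted p = 0.0697) or arterial replicate 1 (adjusted p = 0.0713), nor was the F test passed without type H replicate 3 (adjusted p = 0.0619).

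Dnajc18, another ER membrane member, measured 4.50, 6.05 and 4.48 in CD200-high, 6.43, 6.15 and 6.31 in type H, 4.29, 3.38 and 3.95 in arterial and 5.02, 3.16 and 5.11 in the libraries labelled sinusoidal. It was higher in type H than in arterial (2.42 ± 0.56, 5.35-fold, adjusted p = 0.00994) and sinusoidal (1.87 ± 0.56, 3.64-fold, adjusted p = 0.0263). The sinusoidal call was not kept without type H replicate 1 or 3 or sinusoidal replicate 2 (adjusted p 0.062 to 0.0968), and the F test (adjusted p = 0.0223) did not pass without type H replicate 1 or 3 or arterial replicate 2 (adjusted p 0.0522 to 0.0696). Dnajc5, the cysteine string protein of secretory vesicles, measured 7.98, 8.0 and 7.84 (CD200-high), 8.36, 7.93 and 8.44 (type H), 7.63, 7.17 and 7.84 (arterial) and 7.84, 7.88 and 8.02 (labelled sinusoidal). It was higher in type H than in arterial (0.70 ± 0.19, 1.62-fold, adjusted p = 0.0213), a call not kept without type H replicate 1 or 3 or arterial replicate 2 (adjusted p 0.0692 to 0.0782). Its F test (adjusted p = 0.0597) passed with the replicate block (adjusted p = 0.0468). Under the pan-endothelial scaling the type H minus arterial difference turned to -0.12 for Dnajc16 and -1.31 for Dnajc5, and the type H minus sinusoidal difference to -3.13 for Dnajc16 and -3.5 for Dnajc18. The Dnajc18 difference from arterial was 0.41 there and no longer called (adjusted p = 0.542).

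Dnajc14 and Dnajc8 were lower in CD200-high than in type H. Dnajc14, an ER membrane protein, measured 5.70, 5.88 and 6.54 in CD200-high, 6.79, 7.12 and 6.87 in type H, 6.98, 7.11 and 6.90 in arterial and 6.67, 6.89 and 6.47 in the libraries labelled sinusoidal. Its CD200-high values lay below those of type H (-0.89 ± 0.23, 1.85-fold, adjusted p = 0.0237) and arterial (-0.96 ± 0.23, 1.94-fold, adjusted p = 0.0175). The type H call was not kept without CD200-high replicate 1 or 2 or type H replicate 2 or 3 (adjusted p 0.0558 to 0.0759), the arterial call was not kept without CD200-high replicate 1 or 2 or arterial replicate 1 or 2 (adjusted p 0.0512 to 0.0599), and the F test was not passed without CD200-high replicate 1 (adjusted p = 0.0669) or CD200-high replicate 2 (adjusted p = 0.0636). Under the pan-endothelial scaling the type H difference was -0.14 and not called (adjusted p = 0.777). Ormdl2, which overlaps 17% of its exon bases on the opposite strand, was likewise low there, at 4.94 to 5.87 log2 CPM in CD200-high and 5.94 to 6.68 in the other libraries.

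Dnajc8, a splicing-associated member, measured 6.68, 6.90 and 6.85 (CD200-high), 7.44, 7.55 and 7.21 (type H), 6.85, 7.02 and 6.82 (arterial) and 7.16, 7.73 and 7.39 (labelled sinusoidal). It was lower in CD200-high than in type H (-0.59 ± 0.18, 1.51-fold, adjusted p = 0.0461) and sinusoidal (-0.62 ± 0.18, 1.54-fold, adjusted p = 0.0215). The type H call was not kept on leaving out any 1 library other than sinusoidal replicate 1 or 2 (adjusted p 0.0521 to 0.121), and it turned to 0.16 under the pan-endothelial scaling. The sinusoidal call was not kept without CD200-high replicate 1 or sinusoidal replicate 2 or 3 (adjusted p 0.0524 to 0.0975). Dnajc2, a ribosome-bound co-chaperone, measured 2.43, 4.54 and 3.86 in CD200-high, 2.88, 3.7 and 3.16 in type H, 5.05, 4.56 and 4.48 in arterial and 4.90, 4.69 and 4.81 in the libraries labelled sinusoidal. It was lower in type H than in sinusoidal (-1.55 ± 0.51, 2.94-fold, adjusted p = 0.0397), a call not kept on leaving out any 1 library other than CD200-high replicate 1, 2 or 3 or type H replicate 2 (adjusted p 0.0522 to 0.11), nor with the replicate block (adjusted p = 0.0505).

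Dnajc6, the auxilin that uncoats clathrin vesicles, had no read in type H and 0, 0 and 2 reads in CD200-high. It had 67, 117 and 0 reads in arterial, and 12, 20 and 73 in the libraries labelled sinusoidal. The sinusoidal level was at least 9.79-fold above the type H floor (adjusted p = 0.0357, and 0.06 with the replicate block). The arterial level was at least 21.9-fold above that floor but was not called. The remaining 15 class C genes were called in no comparison. They include Dnajc3, Dnajc10 and Dnajc19, co-chaperones of the ER and of mitochondrial import, which ranged over the 12 libraries from 5.68 to 6.95, from 5.01 to 6.61 and from 5.74 to 6.52 log2 CPM.

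BAG genes gave 1 member high in CD200-high and 1 low in sinusoidal. Bag5, a nucleotide exchange factor with several BAG domains, measured 7.83, 7.27 and 8.03 (CD200-high), 6.25, 6.90 and 5.87 (type H), 6.31, 6.46 and 5.71 (arterial) and 6.42, 6.5 and 6.41 (labelled sinusoidal). All 3 CD200-high values exceeded the other 9. In CD200-high Bag5 exceeded type H (1.37 ± 0.29, 2.59-fold, adjusted p = 0.00924), arterial (1.55 ± 0.29, 2.93-fold, adjusted p = 0.0056) and sinusoidal (1.27 ± 0.29, 2.4-fold, adjusted p = 0.00757). These 3 calls held without any 1 library. Under the pan-endothelial scaling the difference from sinusoidal turned to -3.35 and that from arterial was 0.29 and no longer called (adjusted p = 0.5). On the deposited scaling Bag5 was the only member highest in CD200-high (1.35% of the members, against 1.57% of all genes).

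Bag3, which works with HSPB8 in the removal of damaged proteins and is a heat shock target, measured 6.45, 5.48 and 5.38 in CD200-high, 4.70, 4.76 and 4.43 in type H, 4.54, 4.34 and 5.71 in arterial and 3.5, 3.31 and 2.29 in the libraries labelled sinusoidal. All 3 sinusoidal values lay below the other 9. Bag3 was higher than in sinusoidal in CD200-high (2.74 ± 0.47, 6.66-fold, adjusted p = 0.00118), in type H (1.60 ± 0.47, 3.02-fold, adjusted p = 0.0244) and in arterial (1.83 ± 0.47, 3.55-fold, adjusted p = 0.0291). The type H call was not kept without type H replicate 1 or 2 or sinusoidal replicate 3 (adjusted p 0.0603 to 0.0952), and the arterial call was not kept without arterial replicate 3 or sinusoidal replicate 2 or 3 (adjusted p 0.0569 to 0.131). All 3 differences turned sign under the pan-endothelial scaling, to -1.88, -3.77 and -1.53. Bag1, Bag2, Bag4 and Bag6 were called in no comparison.

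In total, 10 of the 74 members (13.5%) were called highest or lowest in a single population, the same share as among all genes (13.5%). Of these, 5 were lowest in sinusoidal (Bag3, Dnaja4, Dnajb14, Hspa12b and Hspb1), or 6.76% of the members against 4.86% of all genes. Hspb2 alone was lowest in type H (1.35% of the members, against 2.22% of all genes). Among the 56 members with a mean over 10 CPM, the median SD within populations was 0.346 log2 units, and over 9219 genes of that level it was 0.422.

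The partners of these chaperones were followed in 4 further lists. The list of HSP70 and HSP90 co-chaperones held 23 genes, among them Serpinh1, which is a collagen chaperone and not their co-chaperone. Of these, 2 were higher and 7 lower in CD200-high than in sinusoidal, and 2 and 7 in type H. Serpinh1 was among the higher genes in both comparisons. Of all genes, 14.1% were higher and 14.6% lower in the first of these comparisons and 13.9% and 14.6% in the second. The median difference of the list was -0.09 and -0.25, against -0.22 and -0.20 over all genes. Stip1, which carries clients from HSP70 to HSP90, measured 5.14, 5.17 and 5.5 (CD200-high), 5.44, 5.51 and 5.66 (type H), 6.21, 6.06 and 5.90 (arterial) and 6.61, 6.89 and 6.68 (labelled sinusoidal). It was lower than in sinusoidal in CD200-high (-1.46 ± 0.20, adjusted p = 0.000233) and type H (-1.19 ± 0.20, adjusted p = 0.000839), and lower in CD200-high than in arterial (-0.78 ± 0.20, adjusted p = 0.0246). The arterial call was not kept without CD200-high replicate 1 or 2 or arterial replicate 1 or 2 (adjusted p 0.0582 to 0.0873).

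Tomm34, which hands clients of both chaperones to mitochondria, measured 5.45, 4.88 and 5.98 in CD200-high, 7.05, 6.94 and 6.62 in type H, 6.27, 6.28 and 6.57 in arterial and 7.12, 7.07 and 7.02 in the libraries labelled sinusoidal. It was lower in CD200-high than in type H (-1.44 ± 0.26, adjusted p = 0.00311), sinusoidal (-1.64 ± 0.26, adjusted p = 0.000614) and arterial (-0.94 ± 0.26, adjusted p = 0.0328), and the last of these calls was not kept without CD200-high replicate 1 or 2 or arterial replicate 1, 2 or 3 (adjusted p 0.0673 to 0.11). The type H difference was -0.69 under the pan-endothelial scaling and not called (adjusted p = 0.161). Serpinh1, the collagen chaperone HSP47, measured 10.88, 10.74 and 10.05 (CD200-high), 8.08, 8.15 and 7.65 (type H), 8.32, 8.64 and 8.06 (arterial) and 7.53, 5.94 and 6.81 (labelled sinusoidal). Its CD200-high level exceeded type H (2.60 ± 0.35, adjusted p = 0.000481), arterial (2.22 ± 0.35, adjusted p = 0.00201) and sinusoidal (3.80 ± 0.35, adjusted p = 1.49e-05). It was also higher than in sinusoidal in type H (1.20 ± 0.35, adjusted p = 0.0227) and arterial (1.58 ± 0.35, adjusted p = 0.0134). Of these calls, that of type H was not kept without type H replicate 1 or 2 or sinusoidal replicate 2 or 3 (adjusted p 0.0533 to 0.0833), and that of arterial was not kept without arterial replicate 2 (adjusted p = 0.0623). The 3 differences from sinusoidal turned to -0.81, -4.16 and -1.77 under the pan-endothelial scaling, and CD200-high minus arterial was 0.96 and no longer called (adjusted p = 0.103). Col1a1, a chain of bone collagen, was likewise highest in CD200-high. It stood at 13.70 to 14.38 log2 CPM in CD200-high and was lowest in type H, at 1.06 to 4.20, with 10.46 to 10.94 in arterial and 9.87 to 11.23 in the libraries labelled sinusoidal. The part of bone and stromal cells in the Serpinh1 level was not tested.

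Of 13 cytosolic chaperonin and prefoldin genes tested, which fold actin and tubulin, 7 were lower in CD200-high than in sinusoidal, and again 7 in type H, where 14.6% of all genes were lower in each comparison. The first count was 4 without sinusoidal replicate 2. The median difference was -0.64 and -0.71, against -0.22 and -0.20 over all genes. Cct5 measured 6.17, 6.84 and 6.09 in CD200-high, 6.71, 7.02 and 6.98 in type H, 7.32, 7.07 and 7.08 in arterial and 7.52, 7.69 and 7.63 in the libraries labelled sinusoidal. Cct2 and Tcp1 encode further subunits of the same ring. Cct2 measured 5.55, 5.30 and 5.11 (CD200-high), 5.13, 4.33 and 4.77 (type H), 5.81, 5.68 and 5.44 (arterial) and 6.22, 6.01 and 6.10 (labelled sinusoidal). Tcp1 measured 6.69, 6.75 and 6.49 in CD200-high, 6.36, 6.20 and 5.93 in type H, 6.90, 6.57 and 6.71 in arterial and 7.12, 7.08 and 7.33 in the libraries labelled sinusoidal. Type H lay below sinusoidal in Cct5 (-0.71 ± 0.21, adjusted p = 0.0227), Cct2 (-1.36 ± 0.26, adjusted p = 0.00194) and Tcp1 (-1.01 ± 0.18, adjusted p = 0.00118). Of these 3 calls, that of Cct5 was not kept without type H replicate 1 or sinusoidal replicate 2 or 3 (adjusted p 0.0637 to 0.0794). Cct5 was also lower in CD200-high than in sinusoidal (-1.25 ± 0.21, adjusted p = 0.000901), a call that held without any 1 library. It was lower in CD200-high than in arterial too (adjusted p = 0.0268). That call was not kept without CD200-high replicate 1 or 3 or arterial replicate 1, 2 or 3 (adjusted p 0.0559 to 0.0942). Cct2 was lower in CD200-high than in sinusoidal (adjusted p = 0.0395) and in type H than in arterial (adjusted p = 0.0283). The first Cct2 call was not kept without CD200-high replicate 2 or 3, arterial replicate 2, or sinusoidal replicate 1, 2 or 3 (adjusted p 0.0519 to 0.119). The second was not kept without type H replicate 2 or 3 or arterial replicate 1 or 2 (adjusted p 0.059 to 0.0944). Tcp1 was also lower in CD200-high than in sinusoidal (adjusted p = 0.0429) and in type H than in arterial (adjusted p = 0.0421). The first Tcp1 call was not kept without CD200-high replicate 1, 2 or 3, arterial replicate 3, or sinusoidal replicate 1, 2 or 3 (adjusted p 0.0554 to 0.144), nor with the replicate block (adjusted p = 0.0548). The second was not kept on leaving out any 1 library other than CD200-high replicate 1, 2 or 3 or type H replicate 1 (adjusted p 0.0507 to 0.138), nor with the replicate block (adjusted p = 0.055).

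ER folding and stress genes moved in both directions. Of 20 genes, 6 were higher and 4 lower in CD200-high than in sinusoidal, and 6 higher and 3 lower in type H, against the same shares of all genes as for the co-chaperones. The median difference of the list was 0.16 and 0.33, against -0.22 and -0.20 over all genes. The CD200-high count fell from 10 to between 4 and 6 without CD200-high replicate 1 or 2 or any 1 of the 3 sinusoidal libraries, and with library totals alone it was 6 (2 higher and 4 lower). Xbp1, a transcription factor of the unfolded protein response, measured 9.64, 9.50 and 8.98 (CD200-high), 9.99, 10.72 and 10.18 (type H), 8.25, 8.36 and 8.81 (arterial) and 7.91, 8.06 and 7.90 (labelled sinusoidal). It was higher in type H than in arterial (1.82 ± 0.22, adjusted p = 0.000204) and sinusoidal (2.34 ± 0.22, adjusted p = 1.2e-05), and lower in CD200-high than in type H (-0.92 ± 0.22, adjusted p = 0.017). This last call was not kept without CD200-high replicate 3 (adjusted p = 0.052) or type H replicate 2 (adjusted p = 0.056). Its type H differences from arterial and sinusoidal turned to -0.18 and -3.02 under the pan-endothelial scaling, and CD200-high minus type H was -0.17 and not called (adjusted p = 0.77).

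P4hb, the ER protein disulfide isomerase, measured 10.26, 10.002 and 9.66 in CD200-high, 9.49, 9.32 and 9.24 in type H, 8.91, 9.15 and 9.06 in arterial and 8.37, 8.21 and 8.20 in the libraries labelled sinusoidal. Its CD200-high level exceeded type H (0.62 ± 0.15, adjusted p = 0.0168), arterial (0.93 ± 0.15, adjusted p = 0.00211) and sinusoidal (1.71 ± 0.15, adjusted p = 9.3e-06). The type H call was not kept without CD200-high replicate 1 (adjusted p = 0.0557) or type H replicate 3 (adjusted p = 0.0636), and the other differences turned to -0.32 and -2.90 under the pan-endothelial scaling. Syvn1, the ubiquitin ligase of ER-associated degradation, measured 6.23, 5.42 and 5.12 (CD200-high), 4.84, 5.91 and 5.21 (type H), 5.97, 6.24 and 5.79 (arterial) and 7.42, 7.64 and 7.37 (labelled sinusoidal) and was called higher in sinusoidal against each other population. The difference was negative for CD200-high (-1.89 ± 0.32, adjusted p = 0.00118), type H (-2.16 ± 0.32, adjusted p = 0.000393) and arterial (-1.48 ± 0.32, adjusted p = 0.0129) minus sinusoidal, and the arterial call was not kept without arterial replicate 3 (adjusted p = 0.0602) or sinusoidal replicate 2 (adjusted p = 0.0565). Xbp1 and Syvn1 differed by over 2 log2 units between type H and sinusoidal in opposite directions, while Hspa5 and Hsp90b1 were not called there without the block.

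Mitochondrial chaperones and proteases outside the members gave few calls. Of 12 genes, 1 was called higher in CD200-high against type H and 1 lower against sinusoidal (6.66% and 14.6% of all genes), and these were the only calls of the list in the 6 comparisons. Grpel1, the nucleotide exchange factor of mitochondrial HSP70, was the gene lower in CD200-high than in sinusoidal (-0.56 ± 0.16, adjusted p = 0.0222), a call not kept without CD200-high replicate 3 or sinusoidal replicate 2 or 3 (adjusted p 0.0593 to 0.0753). Its F test (adjusted p = 0.0351) did not pass on leaving out any 1 library other than CD200-high replicate 2, type H replicate 2, or arterial replicate 1 (adjusted p 0.0539 to 0.0845), nor with the replicate block (adjusted p = 0.0553). The protease gene Lonp1 was the one called against type H (1.67 ± 0.49, adjusted p = 0.0432), a call not kept on leaving out any 1 library other than CD200-high replicate 3 or sinusoidal replicate 1 (adjusted p 0.0508 to 0.12), nor with the replicate block (adjusted p = 0.057). The protease subunit gene Clpp ranged from 4.64 to 6.48 log2 CPM and was not called.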

How the data were processed

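RNA of 12 libraries (3 per population) was prepared with the Clontech Ultra Low and NexteraXT kits and read at 150 bp on a NovaSeq6000, per the labels' protocols. Trimmomatic, STAR, SAMtools, deepTools, featureCounts and R 4.3 are named in the submitters' processing notes, which also name the human build hg38 although the samples are mouse. The strand counted is not given in the sources used here. The authors deposited 1 table of log2 CPM per gene, relative to scaled library sizes with 0.5 read added. Multiplying back gave whole reads within 0.01 for 100% of values, and listed reads ranged from 7332198 to 21627997 per library.

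From there, genes with fewer than 10 reads (scaled to the mean library, 0.63 CPM) in 3 libraries were removed (276 of 17362), and the log2 values were fitted as they stand with limma 3.58.1 (R 4.3.3, mean-variance trend), with 4 population means over all 12 libraries, Benjamini-Hochberg adjusted over 17086 genes. The fit was tested on simulated data. Promoters came from RefSeq (GRCm38.p6), and exon lengths and overlaps from GENCODE vM21 on GRCm38. Tables and plots used Python 3.11.15, pandas 2.3.3 and matplotlib 3.10.9. The members and lists were chosen with earlier results of these data known. Values in every library are given for 34 members: a fixed core, those highest or lowest in 1 population, and in each comparison up to 5 called members per direction with the largest difference and a mean of at least 100 reads. Up to 3 genes per pathway list with the smallest F test p were added.

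The sample descriptions carry mouse numbers 1 to 3 in each population, so a fit with this number as a block was an alternative. Deviations of same-numbered libraries from their population means correlated at -0.045 to 0.12 (18 pairs of libraries, median 0.027, 2 over 0.1, across 9219 genes). Other alternatives were the scaling, the low-value filter, the pseudocount, the samples in the fit and leaving out each library.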

Additional observations from a re-analysis of the deposited data

How the results depend on the processing

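The counts of members called were recomputed under each alternative. With library totals alone, 29 members were called between CD200-high and sinusoidal (6 higher, 23 lower). Of 17094 genes, 5626 were called there (1995 higher, 3631 lower). With only both compared populations in the fit, 4 members were called between CD200-high and type H, and 1337 of 17086 genes. Of the alternatives chosen after seeing the data, limma without the trend called 4 between CD200-high and type H and 3 between CD200-high and arterial, and the fit without the sinusoidal libraries called 12 in the F test. Over all 17086 genes these counts were 1743, 1611 and 3609. With pan-endothelial medians made equal, the counts were 12 between CD200-high and type H (10 higher, 2 lower), 37 between CD200-high and arterial, 49 between type H and arterial, 70 between CD200-high and sinusoidal (1 higher, 69 lower), 70 between type H and sinusoidal, 62 between arterial and sinusoidal and 70 in the F test. Of all 17086 genes, in the same order, 2826 (2409 higher, 417 lower), 6983, 11288, 14342 (190 higher, 14152 lower), 15314, 12076 and 15472 were called.

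Leaving out 1 library gave 5 to 7 calls between CD200-high and type H, 3 to 9 between CD200-high and arterial, 13 to 21 between CD200-high and sinusoidal, 7 to 14 between type H and arterial, 11 to 25 between type H and sinusoidal, 3 to 6 between arterial and sinusoidal and 18 to 27 in the F test. Over all 17086 genes, in the same order, the counts were 1689 to 2328, 1353 to 2458, 3499 to 5223, 2581 to 3726, 3836 to 5113, 1019 to 1870 and 5238 to 6506. The other alternatives, which were recomputed trimmed-mean scaling, no filter, a minimum of 50 reads, a pseudocount of 1 CPM and voom weights on the recovered reads (chosen after seeing the data), kept each of these counts within 1.5 times. The planned negative binomial tests on recovered reads were not run.

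With the replicate block, 7 members were called between CD200-high and type H, 5 between CD200-high and arterial, 18 between CD200-high and sinusoidal, 14 between type H and arterial, 20 between type H and sinusoidal, 5 between arterial and sinusoidal and 23 in the F test. Over all 17086 genes, in the same order, the counts were 2119, 2070, 4751, 3439, 4796, 1675 and 6128. Of 146 tests of named genes (each called comparison and each F test), 14 lost and 1 gained the call under the block, and the block changed no other call among these 146. Over all 74 members and the 6 comparisons, 10 calls were lost and 7 gained, and in the F test 3 and 3. The gains were Dnajc1 and Hspb2 between CD200-high and sinusoidal (adjusted p = 0.0301 and 0.0426), Dnajc8 and Hsp90ab1 between type H and arterial (0.047 and 0.0349), Hspa5 and Hspa12a between type H and sinusoidal (0.0302 and 0.0343) and Hspa12a between arterial and sinusoidal (0.048). Voom weights lost 11 and gained 4, limma without the trend lost 37, and fits of only both compared populations lost 26 of 100.

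The named differences that turned sign did so with pan-endothelial medians made equal, and under no other alternative. CD200-high minus sinusoidal became -1.88 for Bag3, -3.35 for Bag5, -1.75 for Dnajb14, -1.51 for Hspa12b, -2.90 for P4hb, -0.81 for Serpinh1 and -3.20 for Xbp1. Type H minus sinusoidal became -3.77 for Bag3, -2.17 for Dnaja4, -3.54 for Dnajb14, -3.41 for Dnajb5, -4.23 for Dnajc15, -3.13 for Dnajc16, -3.50 for Dnajc18, -3.0 for Hspa12b, -0.98 for Hspb1, -4.27 for P4hb, -4.16 for Serpinh1 and -3.02 for Xbp1. Arterial minus sinusoidal became -1.53 for Bag3, -1.39 for Dnajb14, -0.68 for Hspa12b, -2.58 for P4hb and -1.77 for Serpinh1. Type H minus arterial became -0.50 for Dnajc15, -0.12 for Dnajc16, -1.31 for Dnajc5, -0.73 for Hsf1, -1.57 for Hspa8 and -0.18 for Xbp1. CD200-high minus type H became 0.16 for Dnajc8 and 0.20 for Hspa8. CD200-high minus arterial became -0.32 for P4hb and -0.36 for Xbp1. This scaling shifts all genes of a library by the same amount, so a turned sign is not particular to these genes. What lies behind the differing pan-endothelial levels was not tested. Depth limits Hspb2, Hspb9, Dnajb3, Dnajb7 and Dnajc6, which had no or few reads in at least 1 population.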
